A study of Homo sapiens with 6 samples.

Results

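The small nucleolar RNA host genes named SNHG followed by a number, together with GAS5, were examined for polyadenylated 3′ ends in IMR-32 cells, a human neuroblastoma line with amplified MYCN. All Gencode genes with such a symbol were taken, which gave 29 of the 62700 annotated genes (28 SNHG genes and GAS5). The rule used symbols and no measured value, though it was set with earlier results of these data known. Every peak was kept whose summit lay in the gene body or up to 600 bp past its 3′ end, which gave 194 of the 200023 peaks in the list, none of them counted for more than 1 of the genes. The libraries fell into 3 groups of 2, with the solvent DMSO, with THZ531 at 400 nM over 2 h, and with THZ531 at 400 nM over 6 h. THZ531 binds the transcriptional kinases CDK12 and CDK13 covalently and inhibits them. All 6 libraries came from the same line, and the labels do not say how long each DMSO library was incubated. The reads of a QuantSeq REV library start at the junction between a transcript and its poly(A) tail and run upstream, so the edge of a peak nearest the gene's 3′ end (its 3′ edge) marks a candidate cleavage site. The authors called 1 list of peaks on merged reads. The list holds 0 columns for a single library and gives no strand, so DMSO could not be compared with THZ531, no value has a replicate error and the depth of each library is unknown.

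SNHG genes are transcribed by RNA polymerase II and spliced like messenger RNAs, and small nucleolar RNAs (snoRNAs) are cut out of their introns. Box C/D snoRNAs (symbols SNORD) guide 2′-O-methylation and box H/ACA snoRNAs (SNORA) guide pseudouridylation, mostly of ribosomal RNA, while the related scaRNAs (SCARNA) act on spliceosomal RNAs in Cajal bodies. The spliced exons carry little or no conserved coding sequence. Several of these genes, GAS5 among them, begin with a 5′ terminal oligopyrimidine tract like ribosomal protein genes, and the spliced RNA is degraded by nonsense-mediated decay when it is translated. GAS5 was first described as a transcript that accumulates in growth-arrested cells. SNHG14 is the long host at the imprinted Prader-Willi and Angelman locus, where its SNORD116 and SNORD115 repeats lie upstream of a stretch antisense to the ubiquitin ligase gene UBE3A.

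The height of a peak is given as reads at its summit, solved from the fold enrichment and −log10 p that the peak caller wrote. With the caller's default setting, which is assumed here, only 1 read is kept per start position and strand. The height therefore counts distinct start positions and is not an expression level. Peaks with −log10 q of at least 5, the cutoff of the study, were used throughout (148 of the 194). Each summit was placed as the gene's own annotation has it: transcript end (200 bp before to 600 bp past any annotated end of the gene), otherwise exon, otherwise intron. Coordinates are GRCh38, 1-based, and the annotation was Gencode release 44.

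The bases at the 3′ edges show the sequence on which each peak ends. A wide peak can end far from its summit. In SNHG25 the summit lay 506 bp from the 5′ end of the gene and the 3′ edge 1663 bp past the annotated end. The next lines give 30 bases, in gene orientation, that end at the 3′ edge of the tallest transcript-end peak of the 9 genes with the most reads there (SNHG6 is not printed). Capitals mark the hexamer nearest the edge among the 12 polyadenylation signal (PAS) hexamers of the study, where 1 lay whole within the 30 bases, which was so in 3 of 9. In the 100 bp before the edge, the window of the study, 1 was also present in SNHG29 (AGTAAA at 33 bp), SNHG16 (AATAAA at 35 bp) and SNHG7 (AGTAAA at 43 bp).
SNHG29, chr17:16442049-16442078, plus strand: aaatttcgcctactgttgtcagatattagc
SNHG7, chr9:136724573-136724602, minus strand: tgaatggaatggattgtcttgactcacaca
SNHG1, chr11:62851906-62851935, minus strand: ttccatgggaaactggctttcctctcatgc
SNHG25, chr17:64148110-64148139, plus strand: ttcgattcccaTATAAAcctggaggacaca
SNHG16, chr17:76565330-76565359, plus strand: acttgggaaactaccgtcagctgagttcaa
SNHG22, chr18:49814420-49814449, plus strand: tgttctgagaacagactgaggccgggcaag
SNHG14, chr15:25120487-25120516, plus strand: tgaaatcttaaagttgccaagttacttgcc
GAS5, chr1:173864140-173864169, minus strand: gacAATAAAatatctgatattctgcattcc
SNHG5, chr6:85672468-85672497, minus strand: tggatatgagcagtaacaaaAATATAggcc

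Some peaks had the classical arrangement, with AATAAA in the last 30 bases before the edge. The following 4 are examples, chosen after the values were seen, whose 3′ edges lay within 20 bp of an annotated end. Further genes with such peaks included GAS5, SNHG4, SNHG10, SNHG14, SNHG16, SNHG19 and SNHG21.
SNHG3, chr1:28509610-28509639, plus strand: atgaattaaAATAAAtacgactgcatgttt
SNHG8, chr4:118279794-118279823, plus strand: attaAATAAAatgcttaattcatgtggcta
SNHG11, chr20:38450896-38450925, plus strand: cccactcAATAAAtcttgaaacatgccctg
SNHG28, chr1:159834474-159834503, minus strand: tctcAATAAAggtattttttccctgctgtt

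Of the 29 genes, 27 had a peak of any strength, 26 had 1 with −log10 q of at least 5 and 23 had 1 at a transcript end. The share with a transcript-end peak was 79.3% (95% Wilson interval 61.6 to 90.2%). It was 17.4% of 18837 other lncRNA genes, 64.0% of 20046 protein-coding genes, 73.4% of 583 other genes with a snoRNA or scaRNA in an intron of their canonical transcript, and 32.4% of all 55134 genes other than small RNA genes. With all annotated ends, the genes thus had transcript-end peaks more often than other lncRNA genes, with intervals that do not overlap, and about as often as the other snoRNA hosts. Some of them have many annotated ends (65 in SNHG14, 52 in SNHG5), and each end widens the span that counts. With canonical transcripts alone, chosen after the data were seen, 12 of the 29 had such a peak, and with peaks in no other gene 9 did. The comparison groups were not recounted on these terms. All Wilson intervals cover counting error only, and genes of 1 list are not replicates, so no p-value is given. SNHG15, SNHG17 and SNHG21 had peaks but none at a transcript end. The single peak of SNHG21 still ended 2 bp before an annotated end, since its summit lay more than 200 bp upstream in the last exon. SNHG9, SNHG18 and SNHG27 had no peak past the cutoff, and SNHG27 had 1 of 5 reads below it.

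The heights followed the same order. Over the 23 genes, the median of the tallest transcript-end peak was 41 reads (quartiles 23.5 and 55.5). With canonical transcripts alone it was 20 reads over 12 genes. With all annotated ends it was 17 reads in other lncRNA genes, 25 in protein-coding genes and 28 in other snoRNA hosts. At least 40 reads were reached by 12 of the 23 genes (52.2%), against 7.44%, 19.2% and 28.7% of those 3 groups and 15.8% of all genes with such a peak. The hosts were also compared at like length: among genes under 10 kb, 11 of 15 SNHG genes (73.3%) had a transcript-end peak with a median of 41 reads, and 52 of 63 other snoRNA hosts (82.5%) had 1 with a median of 50.5. The shares were 45.0% of protein-coding, 18.4% of other lncRNA and 18.7% of all genes under 10 kb. At 10 kb or longer, a set that includes GAS5, the order was the other way: 12 of 14 SNHG genes and GAS5 (85.7%) had a transcript-end peak with a median of 35 reads, and 72.3% of 520 other snoRNA hosts had 1 with a median of 26. There the shares were 70.6% of protein-coding, 16.0% of other lncRNA and 50.5% of all genes.

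**Figure D1:**
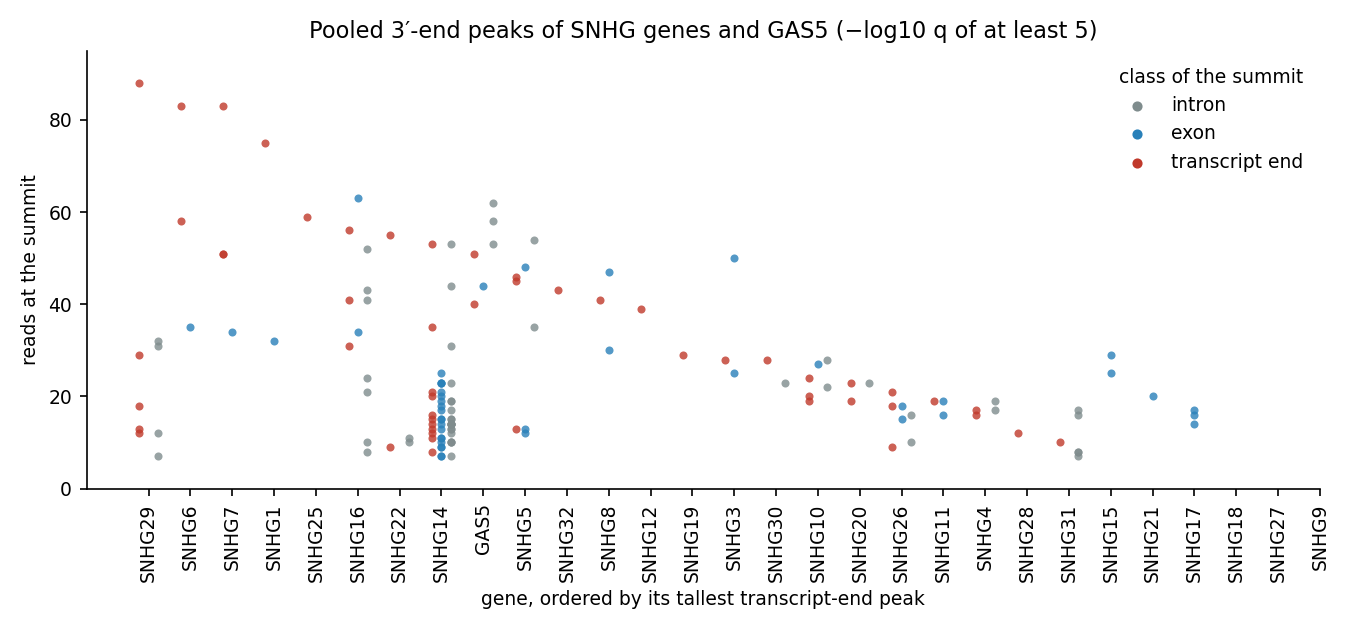
Reads at the summit (linear axis) of each of the 148 peaks with −log10 q of at least 5, by gene, with genes ordered by their tallest transcript-end peak and colours for the class of the summit. SNHG29 reaches 88 reads at a transcript end, the column of SNHG14 holds 52 peaks, and SNHG9, SNHG18 and SNHG27 are empty.

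SNHG29 had the tallest transcript-end peak, with 88 reads at chr17:16441892-16442078 and a 3′ edge 2 bp past an annotated end. SNHG6, the host of SNORD87, followed with 83 reads, and SNHG7, the host of SNORA17A and SNORA17B, also had 83. SNHG1 carries 9 annotated snoRNA genes, all box C/D, and had 75 reads at its end. Its 3′ edge lay 72 bp past the annotated end, which is itself preceded by AATAAA at 31 bp. SNHG16, host of the SNORD1 genes, had 56 reads at a peak ending 2 bp past an annotated end, with AATAAA at 33 bp before that end. Apart from that of SNHG1, these summits also lay in genes on the opposite strand. The genes were LRRC75A for SNHG29, MCMDC2 for SNHG6, DIPK1B for SNHG7, and ENSG00000284526 and ST6GALNAC2 for SNHG16. Without strand in the list, the reads cannot be assigned to the SNHG genes alone.

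The peaks of SNHG25 and SNHG22 lay otherwise within their genes. The SNHG25 gene spans only 540 bp and holds SNORD104, and its single peak of 59 reads was 2102 bp wide, with a 3′ edge 1663 bp past the annotated end. The 55-read peak of SNHG22 had its summit 397 bp from the 5′ end of a 37.1 kb gene, over the snoRNA gene ENSG00000252139, and ended 5 bp before the end of a short annotated transcript. SNHG5, host of SNORD50A and SNORD50B, had 46 reads at chr6:85672468-85672721 and 45 at chr6:85677009-85677385, the latter ending 2 bp inside the RefSeq end of the gene. These SNHG5 summits also lay in ENSG00000271793 on the same strand, and that of SNHG22 in ENSG00000266997 on the opposite strand. The remaining genes with a transcript-end peak reached 10 (SNHG31) to 43 reads (SNHG32) there: SNHG8, SNHG12, SNHG19, SNHG3, SNHG30, SNHG10, SNHG20, SNHG26, SNHG11, SNHG4 and SNHG28 lay between.

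In 12 of the 26 genes with a peak (46.2%) the tallest 1 was not at a transcript end. This share was 66.6% in other lncRNA genes, 44.7% in protein-coding genes, 50.0% in other snoRNA hosts and 49.9% in all genes, so it was near the background. The tallest peak was intronic in 5 genes (GAS5, SNHG4, SNHG5, SNHG10 and SNHG31) and exonic in 7 (SNHG3, SNHG8, SNHG11, SNHG15, SNHG16, SNHG17 and SNHG21). In SNHG11 the exonic and the transcript-end peak were tied at 19 reads. SNHG16 had 63 reads in an exon against 56 at an end, SNHG3 50 against 28, and SNHG8 47 against 41. These heights have no replicate error, so neighbours in this order cannot be called different.

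**Figure D2:**
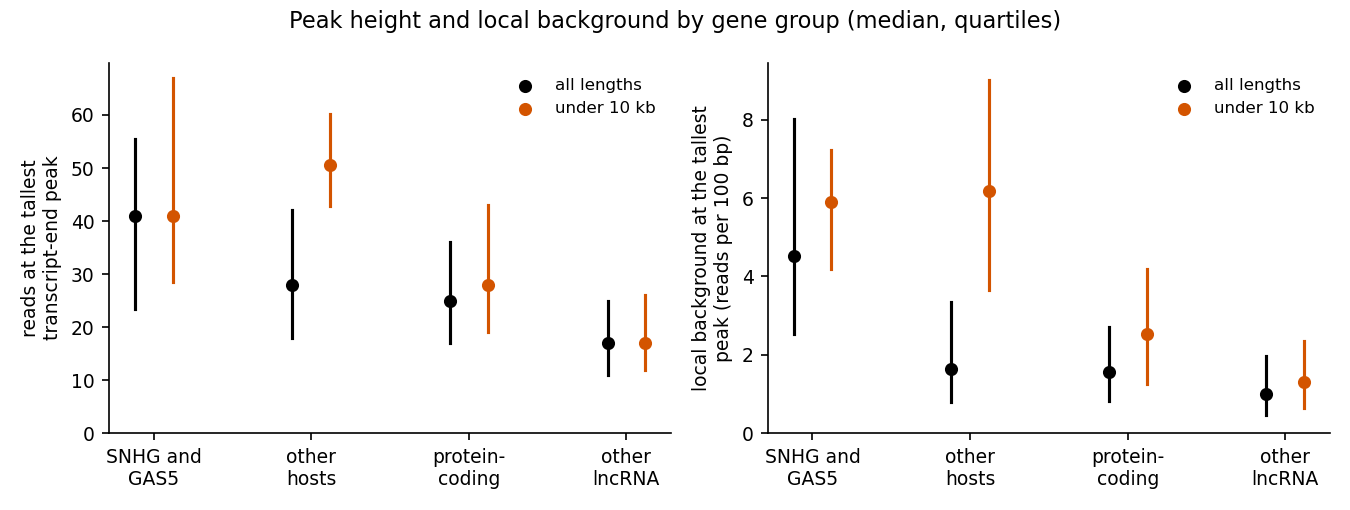
Median (point) and quartiles (line) of the reads at each gene's tallest transcript-end peak (left) and of the local background in reads per 100 bp at its tallest peak (right), for the 29 SNHG genes and GAS5, other snoRNA hosts, protein-coding genes and other lncRNA genes. Black stands for genes of all lengths and orange for genes under 10 kb, where the median background is 5.91 in the SNHG genes (GAS5 is longer than 10 kb) and 6.18 in the other hosts.

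The neighbourhoods of the peaks were also rich in reads. The peak caller's local background, an average over 10 kb given here as reads per 100 bp, was a median of 4.53 at the tallest peak of the 26 genes (quartiles 2.52 and 8.03). It was 0.99 in other lncRNA genes, 1.56 in protein-coding genes and 1.65 in other snoRNA hosts. At least 10 reads per 100 bp were found in 3 of the 26 (11.5%), GAS5 with 16.99, SNHG25 with 11.44 and SNHG16 with 11.04, against 0.668%, 1.04% and 2.29% of the 3 groups and 0.886% of all genes. Among genes under 10 kb, which leaves out GAS5, the medians were 5.91 in the SNHG genes, 6.18 in other hosts, 2.52 in protein-coding genes and 1.31 in other lncRNA genes. At 10 kb or longer they were 3.42 in the SNHG genes and GAS5 and 1.46 in other hosts. The background of a peak includes reads of neighbouring genes.

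GAS5 illustrates such a neighbourhood. The gene lies at chr1:173858559-173868882 on the minus strand, with 91 annotated transcripts, and RefSeq places 11 snoRNA genes in it (10 SNORD and SNORA103), none of which is a snoRNA gene in Gencode release 44. It had 6 peaks of 40 to 62 reads, with a background of 11.03 to 16.99 reads per 100 bp, that is 1103 to 1699 reads in 10 kb. In order from the 5′ end of the gene the heights were 44, 40, 51, 62, 58 and 53 reads, so the heights lay close together and no single end stood out. The first was exonic, the next pair lay at annotated transcript ends and the last 3 were intronic.

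The RefSeq 3′ end of GAS5 divided the peaks evenly. The peaks of 44, 40 and 51 reads ended 2291, 1451 and 239 bp before it, over SNORA103, SNORD79 and SNORD81. The peaks of 62, 58 and 53 reads ended 1635, 2987 and 3940 bp past it, inside the last intron of a longer Gencode transcript. There was no peak from 200 bp before to 600 bp past the RefSeq end itself. The 58-read peak ended on a polyadenylation signal, as the next line shows with AATAAA in capitals.
GAS5, chr1:173860914-173860943, minus strand: tgtctcaAATAAAatattaaaaattggatc
The summits of 62 and 51 reads also lay in the antisense gene GAS5-AS1, and without strand in the list the origin of those reads cannot be told apart.

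**Figure D3:**
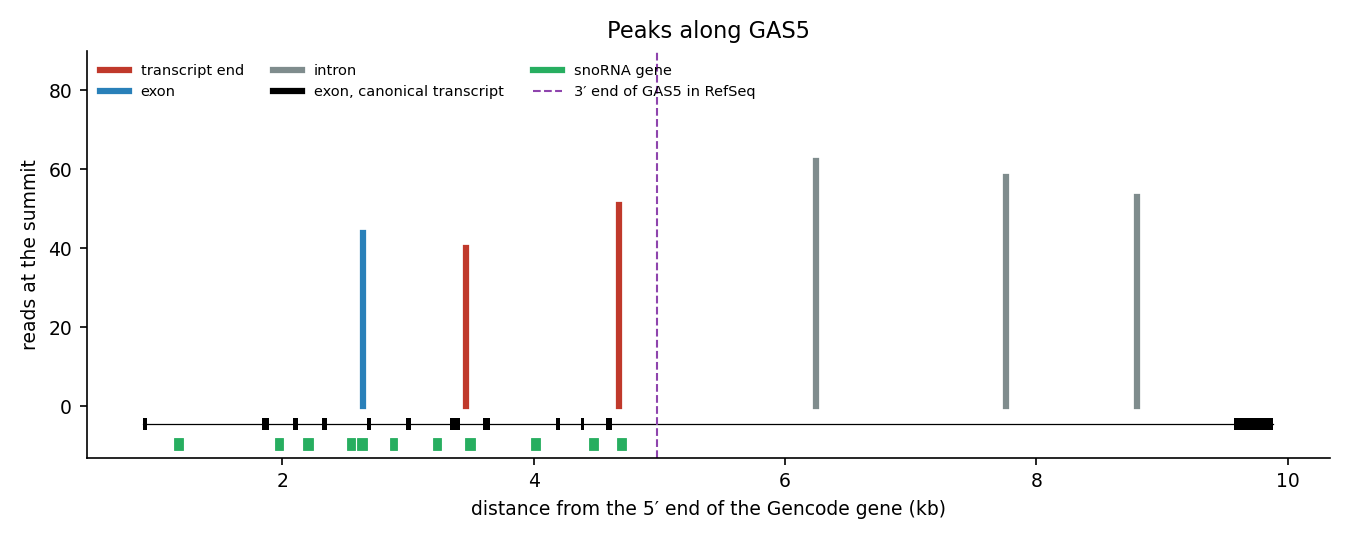
Reads at the summit of the 6 GAS5 peaks by distance from the 5′ end of the Gencode gene (kb), coloured by class, with the exons of the canonical transcript in black, snoRNA genes in green and the RefSeq 3′ end as a dashed line. The peaks of 44, 40 and 51 reads stand over snoRNA genes before the line, and the peaks of 62, 58 and 53 reads stand in the intron after it.

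Reads past the RefSeq end were looked for in the other genes too. Genes were counted that had a peak at the RefSeq end and were scored as having no other gene downstream. Of these, 3 of 6 had a further peak 600 to 4000 bp past it (50.0%, interval 18.8 to 81.2%): SNHG5 with up to 48 reads, SNHG1 with 34 and SNHG10 with up to 28. The 48-read peak of SNHG5 also lay in ENSG00000271793, a Gencode gene on the same strand, so SNHG5 met the condition only with that gene disregarded. The share was 28.9% in other lncRNA genes, 20.7% in protein-coding genes (43.2% of those under 10 kb) and 68.0% of 25 other snoRNA hosts under 10 kb. With 6 genes, a difference from any of these shares was not detectable.

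Of the 148 peaks, 52 (35.1%) lay at a transcript end, 44 (29.7%) in an exon and 52 (35.1%) in an intron, with median heights of 23.5, 19 and 16.5 reads. In other lncRNA genes 21.0% of peaks lay at an end and 68.3% in an intron, and in protein-coding genes 21.4% and 67.7%. SNHG14 alone had 52 of the 148 peaks, and in the other genes the split was 41, 24 and 31. The gene annotation bears on these classes, because 29 to 142 transcripts are annotated for genes such as SNHG28, SNHG5, SNHG17 and SNHG14. With canonical transcripts alone, an alternative chosen after the data were seen, 8.78% of the 148 peaks lay at an end and 58.1% in an intron.

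An intronic peak was found in 12 of the 29 genes (41.4%), fewer than in other snoRNA hosts (78.9%) or protein-coding genes (58.8%) and more than in other lncRNA genes (22.6%) or all genes (30.2%). The other hosts are longer, with a median gene length of 68907 bp against 6851 bp. Intronic peaks with −log10 q of at least 20 occurred in SNHG5 (54 reads), SNHG31 (17 reads over a background of 0.35) and SNHG14. Each of these summits also lay in another gene. This was ENSG00000271793 on the same strand for SNHG5, and ABCA12 and UBE3A on the opposite strand for SNHG31 and SNHG14. Their reads can therefore not be assigned to the SNHG genes alone. Of the 52 intronic peaks, 44.2% lay in an intron that carries a snoRNA, and without SNHG14 the share was 71.0% of 31. The snoRNA can lie anywhere in that intron, and 5.77% of the 52 peaks ended within 100 bp of a snoRNA 3′ end. The share was not counted in other hosts, so no link between these peaks and snoRNAs can be read from it.

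Polyadenylation signals were searched as the 12 hexamers on the strand of the gene (AAGAAA or AATAAA or AATACA or AATAGA or AATATA or AATGAA or ACTAAA or AGTAAA or ATTAAA or CATAAA or GATAAA or TATAAA, which can overlap each other), in the 100 bp ending at the 3′ edge. At least 1 was present at 89 of 148 peaks (60.1%, interval 52.1 to 67.7%), against 43.2% on the opposite strand, in the 100 bp that end there at the other edge of the peak. The shares were 57.0% in other lncRNA genes and 63.1% in protein-coding genes. At transcript ends it was 71.2% (AATAAA alone 46.2%), beside 71.6% and 79.2% in those groups. Outside SNHG14 the hexamers were present at 61.5% of peaks and at 31.3% on the opposite strand, whereas in SNHG14 the opposite strand held them more often (65.4%) than the gene's own (57.7%).

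Genomic runs of A, where an oligo(dT) primer can start within a transcript, were searched downstream of these peaks. A window of 25 bases with at least 22 A within 50 bp past the edge was found at 3 of 148 peaks (2.03%, interval 0.692 to 5.79%). The shares were 2.70% in other lncRNA genes, 4.12% in protein-coding genes and 5.21% in other snoRNA hosts, all inside that interval. With at least 18 A it was found at 7 of 148 (4.73%, interval 2.31 to 9.44%). With 18 A the share was 13.3% in other lncRNA genes, 20.3% in protein-coding genes and 24.9% in other snoRNA hosts. Intronic peaks, which hold more such runs in every group, make up less of the peaks of the SNHG genes, and within introns the share was 7.69% here (interval 3.03 to 18.2%), 15.9% in other lncRNA genes, 26.9% in protein-coding genes and 30.8% in other hosts.

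Some peaks ended at the 3′ end of a snoRNA inside its host. Excluding SNHG14, 11 of 65 snoRNA genes (16.9%, interval 9.72 to 27.8%) had a peak whose 3′ edge lay within 20 bp of their own 3′ end. In other hosts it was 76 of 765 (9.93%, interval 8.01 to 12.3%), and in SNHG14 10 of 84 (11.9%). The mirror count, with the opposite edge within 20 bp of the snoRNA's 5′ end, was 6.15%, 4.84% and 7.14%. The count at the 3′ end was the higher in each set. Only in the other hosts did the intervals of the 2 counts not overlap. There the SNORA genes had 24 against 5 of 160 (intervals 10.3 to 21.3% and 1.34 to 7.11%). Their SNORD genes had 24 against 17 of 222, with overlapping intervals (7.37 to 15.6% and 4.84 to 11.9%). The 765 also include snoRNA genes of neither family. The shares of the SNHG genes and of other hosts have overlapping intervals. For SNORD genes alone, without SNHG14, these shares were 13.9% (5 of 36) and 10.8%, and 4 of 22 SNORA genes had such an edge. Within 100 bp the counts were even or the other way, with 12 against 14 of 65, 10 against 10 of 84 and 107 against 111 of 765. A peak of about 100 bp over a short box C/D snoRNA can meet both counts.

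The 21 snoRNAs lay in 10 host genes, and the edges fell from 2 bp before to 13 bp past the 3′ end, 18 of them at 0 to 9 bp past it. Peak heights ranged from 7 to 55 reads with a median of 25. Of the 21 peaks, 8 had a PAS hexamer, and the most A-rich stretch of 25 bases downstream held between 4 and 15 A. Only 4 of the edges lay within 20 bp of an annotated end of the host. The lines that follow illustrate the sites, box C/D snoRNAs of GAS5 and other hosts first, with the box D letters CTGA in capitals where a search on the strand of the gene found them.
SNORD81 in GAS5, chr1:173864140-173864169, minus strand: gacaataaaatatCTGAtattctgcattcc
SNORD79 in GAS5, chr1:173865352-173865381, minus strand: agaaaatggagattaatcttaaaCTGAaac
SNORD26 in SNHG1, chr11:62855289-62855318, minus strand: tggagaaaacagaaaattCTGAgtagcact
SNORD1B in SNHG16, chr17:76561169-76561198, plus strand: ggaatttgaatatCTGAaactcagtttccc
SNORD65 in SNHG29, chr17:16441271-16441300, plus strand: gtagtggtgaacctatggttttCTGAagat
The box H/ACA and scaRNA sites follow, which had no CTGA in the 30 bases.
SNORA73A in SNHG3, chr1:28507541-28507570, plus strand: actggggagacaaaccatgcaggaaacagc
SCARNA13 in SNHG10, chr14:95533354-95533383, minus strand: tctgttgaacactaagtactgccacaagtt
SNORA9 in SNHG15, chr7:44985377-44985406, minus strand: gagcaaggttatagaaatttcagacaatga
Repeats of the SNORD116 family in SNHG14 make up the last set.
SNORD116-5, chr15:25062406-25062435, plus strand: gttctcatcagaaCTGAggtccagcacgtt
SNORD116-19, chr15:25086597-25086626, plus strand: catcctcgtcgaaCTGAggtccagcacatt
SNORD116-27, chr15:25101644-25101673, plus strand: accacttctgtgagCTGAggtccagcacag

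CTGA was present in 15 of 15 windows at SNORD genes and 1 of 6 at other snoRNA genes. It was present in 9.15% of windows of the same length at 21053 peaks of other lncRNA genes. Box D lies close to the 3′ end of a box C/D snoRNA, so an edge at that end places it in the window. The tallest of these peaks was that of SNHG22, where the 55 reads ended 6 bp past the snoRNA gene ENSG00000252139, which lies under the same peak as SCARNA17. SNORD81 in GAS5 had 51 reads and ended 6 bp past the snoRNA, SNORD1B in SNHG16 had 41 and also ended 6 bp past it, and SNORD26 in SNHG1 had 32 and ended 3 bp past it.

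**Figure D4:**
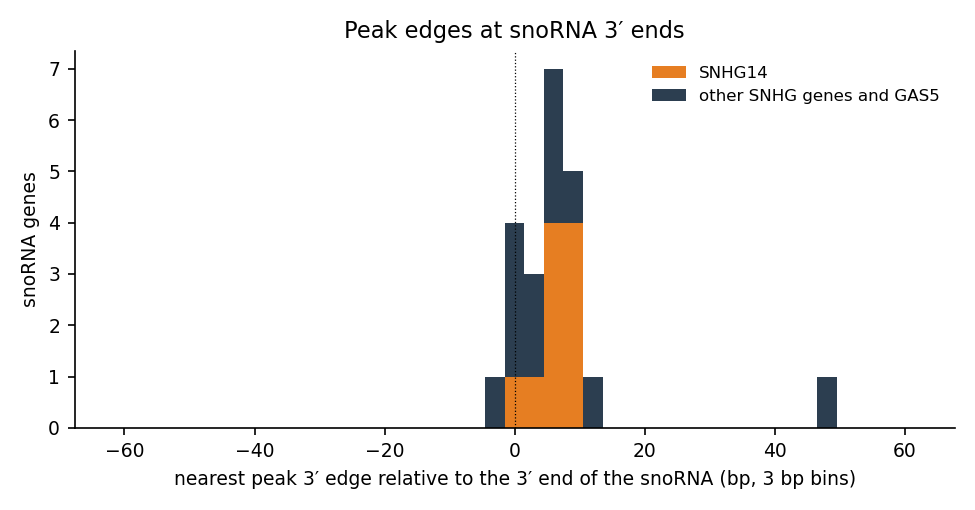
Number of snoRNA genes by the distance (bp, bins of 3 bp) from their 3′ end to the nearest peak 3′ edge, positive values lying past the end, shown out to 60 bp either side and split into SNHG14 (orange) and the other SNHG genes and GAS5 (dark). The 21 snoRNA genes within 20 bp gather between −2 and 13 bp, and 18 of them lie at 0 to 9 bp.

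SNHG14 spans 441.754 kb (chr15:24978583-25420336, plus strand) with 84 snoRNA genes and was read in 5 stretches. Upstream of the SNORD116 cluster there were 18 peaks in 72.9 kb, of up to 23 reads. The SNORD116 cluster, with 30 snoRNA genes over 56.9 kb, had 11 peaks of up to 25 reads. Of these, 9 ended 0 to 9 bp past a SNORD116 3′ end, with 7 to 25 reads, and none of the 11 had AATAAA. In the whole of SNHG14 only 5 of 52 peaks (9.62%) had it, so its absence here is near the share of the gene. Between the clusters there were 7 peaks, among them the tallest transcript-end peak of the gene (53 reads at chr15:25120181-25120516).

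The SNORD115 cluster differed from its neighbour. It holds 49 snoRNA genes over 110.638 kb and had 0 peaks at any q, against 13 in the SNORD116 cluster. Both families are repeats of similar sequence, though copies of SNORD116 differ, as the lines above show. The mapping allowed a read 20 placements at most, so a read of 1 copy can be counted at another or lost. How this bears on either cluster was not tested. Downstream there were 16 peaks of up to 53 reads, and 15 of them overlapped UBE3A on the opposite strand. As the list gives no strand, reads of SNHG14 and of UBE3A cannot be told apart there. PAS hexamers lay on the strand of SNHG14 at 8 of the 15 and on the strand of UBE3A, before the other edge, at 13 of the 15.

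**Figure D5:**
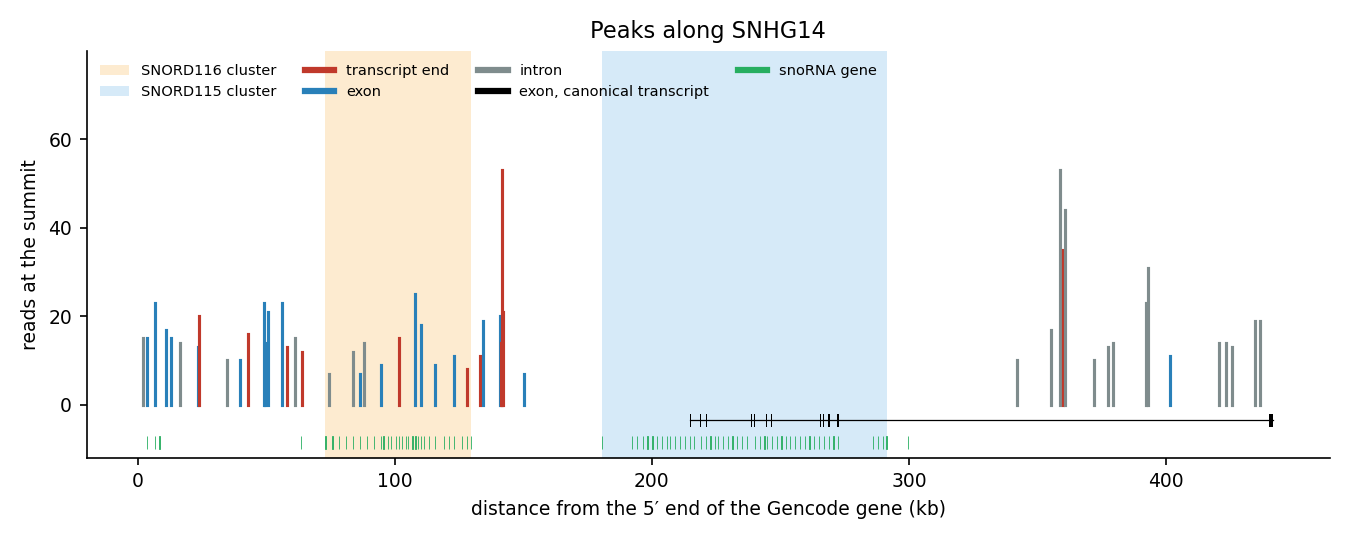
Reads at the summit of the 52 SNHG14 peaks by distance from the 5′ end of the Gencode gene (kb), coloured by class, with the SNORD116 (beige) and SNORD115 (blue) clusters shaded, snoRNA genes as green ticks and exons of the canonical transcript in black. Peaks of up to 25 reads stand in the SNORD116 cluster, 0 in the SNORD115 cluster, and peaks of up to 53 reads return downstream, where UBE3A lies on the opposite strand.

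Shared loci concerned many of the genes. Of the 148 summits, 58 lay in no other gene, 30 also lay in another gene on the same strand and 67 in a gene on the opposite strand. SNHG3 shared all of its peaks with RCC1 on the same strand, and SNHG7 shared its peaks with DIPK1B on the opposite strand. With peaks in no other gene alone, 9 genes had a transcript-end peak. Neither the overlaps nor this count was made for other genes, so whether sharing is more common here is unknown. Against RefSeq, which gives each gene a single span, 15 of the 29 genes had a peak 3′ edge within 100 bp of the 3′ end. This count was not made for other genes. A peak at the RefSeq end, as counted above for reads past it, was found in 16 of the 29. Among genes matched to RefSeq it was found in 741 of 5096 other lncRNA genes, 10035 of 19191 protein-coding genes and 318 of 487 other snoRNA hosts.

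The genes without a peak past the cutoff differed in their surroundings. The nearest such peak to SNHG9 was 1074 bp away in RPS2, with 43 reads over 1331 reads in 10 kb. For SNHG18 it was 4051 bp away in SEMA5A with 21 reads, and for SNHG27 it was 157892 bp away with 7. These genes were not detectable at this depth and background, which does not show that they were silent.

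The proteins that build and release snoRNAs nearly all had a transcript-end peak. This held for 4 of 4 core proteins of box C/D particles (median 38.5 reads), among them NOP56 with 83 reads, itself a snoRNA host, and for 4 of 4 of box H/ACA particles (median 37), among them the pseudouridine synthase DKC1 with 49. It held for 9 of 10 assembly factors (median 31) without ZNHIT6, for 6 of 7 factors of intron debranching and trimming (median 29.5) without TENT4B, and for 8 of 8 factors of nonsense-mediated decay (median 25). The background is the 64.0% of protein-coding genes named above. As a check of the cell type, 10 of 10 sympathoadrenal markers had a transcript-end peak (median 66.5 reads, PHOX2A 123), beside 3 of 6 fibroblast, 0 of 5 leukocyte and 1 of 3 epithelial markers, with at most 15 reads in the fibroblast list and 7 in the epithelial list.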

How the data were processed

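RNA of 6 IMR-32 libraries was sequenced from the 3′ end. By the methods of the study, the authors trimmed reads, mapped them with STAR 2.5.1b to GRCh38 keeping up to 20 placements, merged all samples and called peaks with MACS2 2.1.1 without a control. The merged samples are taken to be these 6. The deposited list gives a fold (ratio of pileup plus 1 to background plus 1), a −log10 p-value, a −log10 q-value, a score, and a summit offset per peak, with the score not used here. The authors' annotation was Gencode 27, here 44. Python 3.11.15 with pandas 2.3.3, scipy 1.17.1 and pysam 0.24.0 was used.

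Reads at the summit and the background were solved from the deposited fold and −log10 p (largest misfit 0.000172), checked on simulated peaks. The background has a floor of 0.337 reads per 100 bp, met by 22.2% of peaks. Shares have 95% Wilson intervals. All samples are pooled, so no test was run. Genes were matched by symbol to RefSeq (29 of 29). Of the 149 snoRNA genes in them, 14 came from RefSeq only and were given the strand of their host. Windows were read from GRCh38.

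The members and lists were chosen with earlier results of these data known. Described genes were GAS5, SNHG14, the 10 tallest at a transcript end, those with an intronic peak of −log10 q of at least 20, and those whose tallest peak was elsewhere. Further genes were named after their values were seen. Alternatives were other q cutoffs, a narrower end window, other hexamer sets, unshared peaks, SNHG14 left out and canonical transcripts.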

Additional observations from a re-analysis of the deposited data

How the results depend on the processing

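Of 44 values recomputed under the alternatives, 25 stayed inside the interval of the reported share, within 1.5 times the reported count or inside the exact Poisson interval of the reported median height, and those that did not are given here. With −log10 q of at least 20, 8 genes had a transcript-end peak (median 65 reads) and 3 an intronic 1, 52.6% of the 19 peaks lay at an end and 26.3% in an intron, 20% of 5 intronic peaks lay in a snoRNA-bearing intron, and 0 had an A stretch. Fewer peaks entered that setting. Without SNHG14, 71.0% of intronic peaks lay in a snoRNA-bearing intron (44.2% with it). With 100 bp either side of an end, 27.03% of peaks were at an end. With peaks in no other gene, 9 genes had a transcript-end peak and 7 an intronic 1. The hexamer share was 27.03% for AATAAA alone, 36.5% with ATTAAA and 38.5% in windows ending at the summit. An edge within 100 bp of a snoRNA 3′ end was found at 5.77% of intronic peaks. With canonical transcripts, chosen after seeing the data, 12 genes had a transcript-end peak (median 20 reads), 8.78% of peaks lay at an end and 58.1% in an intron. Beyond the settings' own construction, the cause of these changes was not tested. No paired analysis was possible because each peak has 1 value over all libraries together, and for the same reason no replicate could be left out. Library depth is unknown, and heights cannot show expression.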
